A study of Arabidopsis thaliana with 18 samples.

Results

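The transcripts described here are those that stood high at both 20 h and 0 h of a daily time course in Arabidopsis rosettes and low at 8 h and 12 h. The measured values chose them. A constant of 10 was added to every signal, and in each of 3 replicate series the smaller of the 20 h and 0 h values was divided by the larger of the 8 h and 12 h values. The lowest of the 3 quotients was the score of a probe set, a group of array probes for 1 transcript. Probe sets had to have a mean of 100 or more over 20 h and 0 h and a 0 h mean less than 2 times the 20 h mean, with the constant included in both. Of the 22746 probe sets that are no array controls, 6736 met these criteria and the 150 with the highest scores were kept, after 4 genes (AKINBETA1, SWEET2, ATG8E and SPS4F) had been left out by name. The scores of the 150 lay between 1.76 and 8.32, with a median of 2.09. At the threshold the last 3 kept were AT3G21670 (score 1.77), 262238_at (1.77) and 266238_at (1.76), and the first 3 outside were AT3G26890 (1.76), AT5G44020 (1.75) and ALN (1.74).

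Every array held RNA from full rosettes of wild-type Col-0 plants, 5 to 6 weeks old, and no mutant or treatment was part of the series. Material of 15 rosettes was ground together for a sample, and samples were taken at 0, 4, 8, 12, 16 and 20 h in 3 separately grown courses, called series A, B and C after their replicate letters, so that each time has 3 arrays and each series 6. Where 3 signals of a time are listed, they stand in the order A, B, C. The labels give no time of lights on or off, and all times are as labelled. In such whole-rosette RNA, fewer cells of a type and less RNA per cell cannot be told apart.

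In leaves, many transcripts follow a daily rhythm that is set jointly by the circadian clock, by light and by the carbon supply. Starch stored in the light is broken down to sugar in the dark, and a group of genes that sugar represses is known to rise as carbon runs low. The transcription factors HY5 and HYH promote responses to light, while enzymes of amino acid breakdown, transporters and cell wall enzymes are among the other known targets of daily control in rosettes.

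Of the 150 probe sets, 61 (40.7%) carried 1 gene in the platform's annotation and 89 are unnamed here, while 59.4% of all probe sets carried 1 gene. The unnamed members are given by probe set ID. Among the 61 named ones, 1 is annotated as a pseudogene, and a role could be stated for 32. Only AT4G37550 and AT4G37560 are next to each other among the protein-coding genes of the RefSeq annotation.

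Array medians lay between 32.2 and 39.9 signal units, and the number of arrays limits the precision of every mean. A ubiquitin control, read for RNA quality, had a 3'/5' signal ratio of 3.83 to 5.98 in series C, 2.14 to 2.80 in series A and 2.55 to 3.14 in series B. Each series holds every time. Leaf genes were bright on all arrays, with mean signals of 3574 to 4951 for RCA, the Rubisco activase, and 2177 to 3072 for the Calvin-Benson enzyme SBPASE, while the root hair expansins EXPA7 and EXPA18 had means of 6.83 to 12.5 and 12.7 to 27.7. The root marker PYK10 was measured at 171.6 to 215.1. None of the 5 flower and pollen markers and 4 seed markers looked up had a named probe set, so these tissues could not be checked.

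The arrays of series B went against those of A and C in the middle of the course, which bears on every value at 4, 8, 12 and 16 h. Among the 150 members, the log2 difference between 16 h and 4 h correlated between series A and C (r = 0.93) and ran opposite in series B (r = -0.94 with A, -0.92 with C). The same held for 12 h minus 8 h, with r = 0.83 between A and C, -0.91 between A and B and -0.85 between B and C. For 20 h minus 0 h all 3 series ran the same way, with r = 0.65, 0.63 and 0.74 for A with C, A with B and B with C. These are correlations across 150 transcripts, which are not independent replicates, and they were alike in sign over the 10832 probe sets at least as bright on average as the dimmest member (0.81, -0.85 and -0.79 for 16 h minus 4 h). These differences are on the scale log2(signal + 10). Each array was also correlated over all probe sets with the arrays of the other 2 series, and the 2 values were averaged. The array 4 h B correlated at 0.963 with the 16 h arrays and at 0.945 with those of its own time. For 16 h B it was 0.967 with the 4 h arrays and 0.946 with its own. For the arrays of A and C these averages lay between 0.945 and 0.958. They include the B arrays, so they do not show how well A and C alone tell 4 h from 16 h. The labels were kept, and each result on 4 h or 16 h is given by series or with and without these 2 arrays. The score takes the larger of 8 h and 12 h within a series, so it does not depend on which of them is which.

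**Figure D1:**
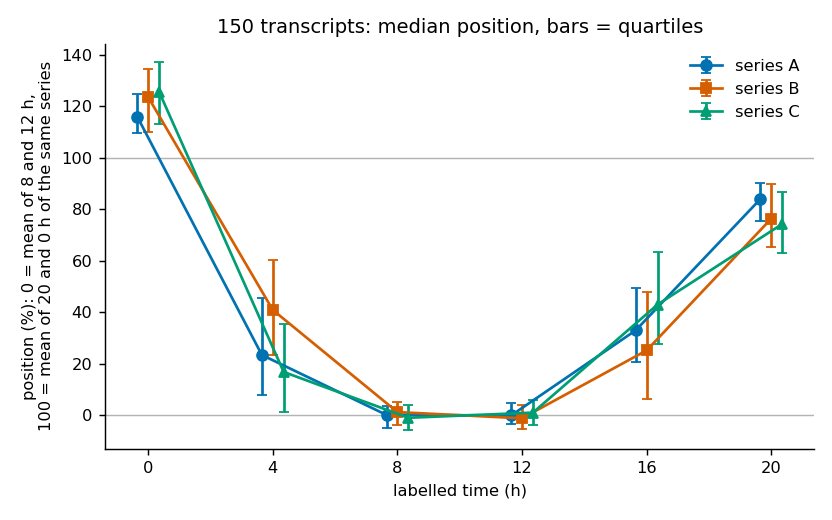
Median position of the 150 transcripts at each labelled time (x axis, hours) in series A, B and C, as a percentage of the way from a transcript's own mean of 8 h and 12 h (0) to its mean of 20 h and 0 h (100), with quartiles as bars. Series B lies above A and C at 4 h and below them at 16 h, with medians of 40.9% and 25.2%. At 0 h the medians of the 3 series span 116.0% to 125.7% and at 20 h 74.3% to 84.0%.

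The members had a trough at 8 h and 12 h in each series. In series A the median of their signals was 456 at 0 h, 105.5 at 8 h, 107.8 at 12 h and 339 at 20 h. It was 413, 99.4, 92.2 and 288 in B and 434, 89.4, 95.8 and 276 in C at these times. At 4 h and 16 h the medians were 157.7 and 196.4 in A and 120.6 and 210.6 in C, but 197.1 and 148.4 in B, so that B had the higher one at 4 h. The mean over 20 h and 0 h was between 2.22 and 209.7 times the mean over 8 h and 12 h, with a median of 3.55, and 31 members reached 5 times and 7 reached 10 times. For all 150 members the lowest array at 20 h and 0 h lay above the highest array at 8 h and 12 h. The choice by these same arrays favours such a gap, and its share over all probe sets was not counted. Within every series, 9.7% of all probe sets had both signals at 20 h and 0 h above both signals at 8 h and 12 h. The rule took the members from the highest of these. These contrasts are what the members were chosen by and carry no test. The lowest signal of a series was at 8 h for 69 members in A, 63 in B and 72 in C, and at 12 h for 66, 72 and 56. The remaining 15 in A and 22 in C were lowest at 4 h, and the remaining 15 in B at 16 h.

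The arrays of 4 h and 16 h had no part in the choice. Set on a scale where 0% is a transcript's mean of 8 h and 12 h and 100% its mean of 20 h and 0 h in the same series, the median position at 4 h was 23.4% in series A and 16.8% in series C, and at 16 h it was 33.0% and 43.0%. In series B the order was the other way round, with 40.9% at 4 h and 25.2% at 16 h. The spread among members was wide, with quartiles of 7.7% and 45.5% at 4 h in series A and of 27.6% and 63.3% at 16 h in series C. At 4 h, 22 members in series A and 33 in series C were below their own mean of 8 h and 12 h, against 2 in series B.

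Among regulators, HYH, the close relative of the light-signalling factor HY5, had 262.6, 271.8 and 365.6 at 0 h and 207.2, 130.3 and 155.5 at 20 h. Its 6 arrays at 8 h and 12 h held 12.7 to 44.9, so the groups did not overlap, which held for all 150 members. At 4 h HYH had signals of 69.5, 37.7 and 56.1 and at 16 h of 47.6, 74.2 and 56.9, nearer to the trough than to the peak in each series. AT2G28200, a zinc finger protein of the C2H2 type, had means of 133 ± 10.8 at 0 h and 63.1 ± 9.81 at 20 h, against 7.07 ± 7.41 at 8 h and 8.37 ± 5.52 at 12 h (SD, n = 3). Together with 258723_at it is one of 2 members whose 0 h mean was over 2 times that of 20 h without the added constant. AT1G49200, a member of the RING-type ubiquitin ligases, had the widest relative range of this group. Its signals were 534.1, 431.9 and 434.4 at 0 h and 393.5, 270.5 and 196.9 at 20 h, and 4.7 to 28.9 over the arrays at 8 h and 12 h. The other RING protein, AT4G26400, and the F-box protein AT3G07870, a substrate receptor of ubiquitin ligases, had mean signals of 353 ± 62.2 and 209 ± 26.5 at 0 h and of 119 ± 12.4 and 44.4 ± 11.8 at 8 h (SD, n = 3).

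The role groups were made after the values were seen and carry no test. A mixed group of metabolism and protein turnover held 7 named members, with a ratio of the 20 h and 0 h mean to the 8 h and 12 h mean between 2.26 and 4.17. AT3G15450, whose transcript is known to be repressed by sugar, was the sole named member from the list of sugar starvation genes. AKINBETA1 of that list met the signal criteria with a score of 1.89, but it had been left out by name. Only 7 of the 24 genes on that list had a named probe set and could be looked up. The signals of AT3G15450 are given next. It had 1077.8, 1316.6 and 2388.1 at 0 h and 854.8, 776.4 and 1238.7 at 20 h. Its trough was at 12 h in series A and C, with 93.5 and 169.5, but at 8 h in series B, with 78.5. AT2G26800, the hydroxymethylglutaryl-CoA lyase of leucine breakdown, had means of 359 ± 32.8 at 0 h, 238 ± 20.1 at 20 h and 102 ± 3.34 at 8 h (SD, n = 3). Cytosolic isocitrate dehydrogenase, cICDH, which makes 2-oxoglutarate for nitrogen metabolism, was at 2232.4, 2372.2 and 3295.6 at 0 h and at 1927, 2505 and 2613.6 at 20 h, against 1007.5 to 1238.4 at 8 h and 12 h. The neighbouring genes AT4G37550 and AT4G37560 both encode proteins of the acetamidase/formamidase family. The first had 730.7, 666.6 and 871.1 at 0 h, 467.1, 488.9 and 416.4 at 20 h and 104.3 to 187.8 over the arrays at 8 h and 12 h. The second had means of 219 ± 44.3 and 183 ± 21.8 at 0 h and 20 h and 50.4 ± 22.4 at 8 h (SD, n = 3). The cystatin AT5G47550, a protease inhibitor, and the aspartyl protease AT1G05840 were 2.52 and 2.59 times as high at 20 h and 0 h as at 8 h and 12 h.

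Of the 24 genes in the sugar starvation list, 7 had a named probe set, and 4 of these 7 were higher at 20 h and 0 h than at 8 h and 12 h in every series, a property shared by 9.7% of all probe sets. Beside AT3G15450 these were AKINBETA1, left out by name, MCCA, an enzyme of leucine breakdown, and AT2G20670. MCCA had mean signals of 122.5 at 0 h and 84.9 at 20 h, and 53.2 and 54.0 at 8 h and 12 h, a score of 1.24. AT2G20670 had 306.0 at 0 h but 54.9 at 20 h, and so did not meet the criterion on these 2 times. The remaining 3, MCCB, IVD and ATL8, had no such course, with mean signals of 158.3 to 177.5, 37.5 to 47.0 and 30.8 to 42.6 over the 6 times. In the autophagy list 5 of 11 measured genes had the property, among them ATG8C (268 at 0 h and 161.3 at 12 h), ATG8F (1090.1 and 589) and ATG8E, which was left out by name. None of the 11 is a member, and only ATG8E, of those with the property, had a score above the lowest member's. No named member came from the lists of morning clock, evening clock, photoperiod, phytochrome signalling, starch degradation, sucrose export or amino acid recycling genes. Only 12 genes of these lists had a named probe set, with 1 of 11 for the morning clock and 1 of 12 for the evening clock. The 89 unnamed members could not be looked up, so it is not known whether they include genes of any list.

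Transport and binding proteins were the next group, with 6 members and ratios between 3.16 and 7.02. AT3G21670, the nitrate transporter family protein NPF6.4, had 885.5, 1100.9 and 1025.9 at 0 h, 651.4, 492.8 and 510 at 20 h and 142.7 to 305.8 over the arrays at 8 h and 12 h. AT5G48490, a lipid transfer protein related to DIR1, which acts in systemic immunity, had 1195.7, 1458 and 1993.8 at 0 h and 732.9, 798.7 and 1000.3 at 20 h. Its 8 h and 12 h arrays ranged from 73.1 to 264.4, all below those of 20 h and 0 h, as in every member. AT1G33110, an efflux carrier of the MATE family, had means of 408 ± 17.1 at 0 h, 229 ± 33.3 at 20 h, 48.8 ± 10.6 at 8 h and 56.8 ± 17.2 at 12 h (SD, n = 3). AT5G14120, of the major facilitator superfamily, had 1943.7, 2187 and 3309.7 at 0 h and 1604.1, 1514.9 and 1865.2 at 20 h, against 250.3 to 573.8 at 8 h and 12 h. AT1G01490, a heavy-metal-associated domain protein, was at 937 ± 131 at 0 h and 578 ± 134 at 20 h, and its values at 4 h (529.2, 386.2 and 412.7) and 16 h (471.9, 469.4 and 426.5) overlapped. AT2G36950, of the same domain family, had 313 ± 69.8 and 169.7 ± 16.9 at these times against 60.1 ± 15.4 at 8 h (SD, n = 3).

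Cell wall genes contributed 4 members. EXGT-A3, a xyloglucan endotransglucosylase that cuts and rejoins wall polymers, had 1289, 1173.7 and 819.2 at 0 h, 802.2, 690.2 and 392.8 at 20 h and 145.1 to 273.4 over the arrays at 8 h and 12 h. Series C was the lowest of the 3 at both high times. TBL45 and TBL37 belong to a family whose studied members add acetyl groups to wall polysaccharides, and their means were 712 ± 49.5 and 192 ± 59.0 at 0 h against 187 ± 19.2 and 48.6 ± 7.46 at 8 h (SD, n = 3). EXO (EXORDIUM), a brassinosteroid-responsive growth gene, had 358 ± 148 at 0 h, 234 ± 56.7 at 20 h and 89.2 ± 25.5 at 8 h.

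Conjugating and redox enzymes gave 5 members, with ratios of 2.25 to 3.52. UGT76C2, which glucosylates cytokinins, had means of 151 ± 26.9 at 0 h, 136 ± 20.4 at 20 h and 40.1 ± 3.61 at 12 h (SD, n = 3). UGT74D1, which glucosylates auxins, had 271 ± 56.1, 162 ± 22.7 and 63.7 ± 18.5 at the same times. The glutathione transferase GSTU18 was at 549 ± 39.6 and 467 ± 32.2 at 0 h and 20 h and at 219 ± 46.4 at 12 h. The glutaredoxin AT1G06830 was one of 2 named members with a higher mean at 20 h (627 ± 126) than at 0 h (570.5 ± 16.9), a difference within the SDs. Its signals at 20 h were 697.5, 481 and 702.4, with series B the lowest. The acyltransferase family gene AT5G39080 had 216 ± 36.1 at 0 h and 55.4 ± 15.8 at 12 h.

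Of the remaining members with a stated role, AT4G21870, a small heat shock protein, had the highest score of all (8.32). It had 515.8, 419 and 627.3 at 0 h and 456.3, 282.8 and 346.2 at 20 h, and 21.5 to 37.3 over the arrays at 8 h and 12 h. AT1G44000, the STAY-GREEN-LIKE protein of chlorophyll breakdown, had 1060.8, 1318.8 and 1343.1 at 0 h, 950, 948.4 and 1074.1 at 20 h and 349.3 to 419.7 at 8 h and 12 h. AT5G13770, a pentatricopeptide repeat protein, a family that binds organelle RNA, was at 889 ± 179 at 0 h and 731 ± 145 at 20 h against 188 ± 23.1 at 8 h (SD, n = 3). AAPT2, an aminoalcoholphosphotransferase of phospholipid synthesis, had 445 ± 39.6, 261 ± 25.5 and 105 ± 14.9 at these times, and the protein kinase APK1A had 176 ± 16.5, 103 ± 8.40 and 34.5 ± 8.81.

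Among the 29 named members with no role stated here, the pseudogene AT3G15310 had the highest ratio, 17.7, with 199.7, 228.1 and 172.4 at 0 h, 148.2, 95.1 and 91.3 at 20 h and 4.7 to 15.7 at 8 h and 12 h. AT3G19030 showed the reversed order of series B at its trough. It had 45.4, 183.6 and 47 at 8 h and 125.7, 47.8 and 137.9 at 12 h, so that 8 h was the lower time in A and C and 12 h in B. Its signals were 687.6, 720.6 and 1266.5 at 0 h and 585.5, 641.5 and 765.2 at 20 h. AT3G27350 had means of 165 ± 13.3 at 0 h and 134 ± 2.83 at 20 h against 36.0 ± 7.05 at 8 h, AT1G22890 had 331 ± 72.6 and 175 ± 37.0 against 48.2 ± 14.5 at 12 h, and AT4G18740 had 428 ± 40.3 and 299 ± 30.5 against 81.4 ± 16.1 (SD, n = 3).

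**Figure D2:**
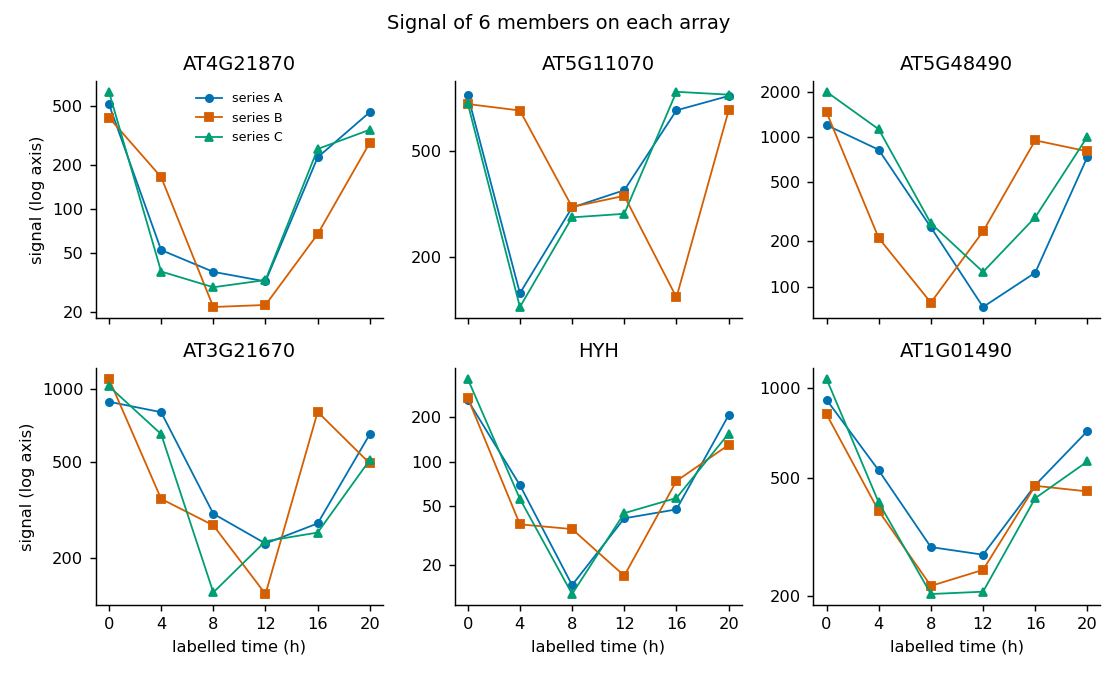
Signal (log axis) of 6 members on each array against the labelled time (hours), 1 line per series. AT4G21870 and AT5G11070 are higher at 16 h than at 4 h in series A and C and lower in B, AT5G48490 and AT3G21670 show the opposite, and the 4 h and 16 h values of HYH and of AT1G01490 overlap.

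The comparison of 16 h with 4 h asked whether the 2 flanks of the trough were alike, and it is the sole contrast between times that had no part in the choice of members. With all 18 arrays, limma on log2(signal + 1.1) (moderated test, Benjamini-Hochberg adjustment over 22746 probe sets) called 0 of the 150 members and 0% of all probe sets, and 4 members and 391 probe sets had an unadjusted p below 0.05. The arrays 4 h B and 16 h B ran against A and C on this same contrast, and their removal was chosen with earlier results known. Adjusted p-values of the fit without them, here and below, hold only given that choice. When 4 h B and 16 h B were dropped, the test called 48 members, 37 higher at 16 h and 11 higher at 4 h. It called 3.29% of all probe sets (1.57% higher at 16 h and 1.72% higher at 4 h). The median log2 difference over all 150 members was then 0.37, against -0.04 over all probe sets. Among the 10832 probe sets at least as bright as the dimmest member, many that went 1 way in A and C also reversed in B. The shares were 82.2% of those higher at 16 h and 81.9% of those higher at 4 h. All 48 called members had the opposite sign in series B. With its 2 arrays none was called, so this sign is partly fixed by the use of the fit without them. That fit rests on 2 arrays at each of the 2 times, and the count was 32 without 4 h A, 19 without 4 h C, 24 without 16 h A and 23 without 16 h C. It was 29 without the intensity trend, and leaving out all of series B in place of the 2 arrays gave 45. With series as a block it was 72, when the share of all probe sets was 7.87%. All 48 kept their direction and 14 kept their call under the 9 alternatives tried on it.

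In both series A and C, 83 members (55.3%) had a higher signal at 16 h than at 4 h and 46 (30.7%) a lower one, while 21 differed in sign between A and C. Among the 10832 probe sets at least as bright as the dimmest member the shares were 38.6% and 35.4%. In series B, 80 of the 83 and 43 of the 46 went the other way. The median log2 difference over the members was 0.15 in series A, 0.58 in series C and -0.31 in series B.

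**Figure D3:**
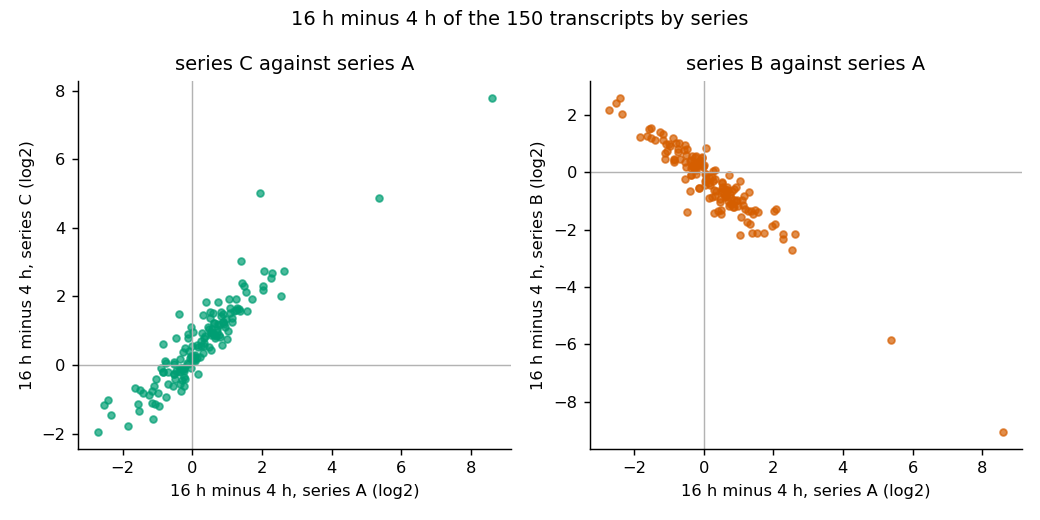
Log2 difference between 16 h and 4 h for each of the 150 transcripts in series C (left) and series B (right) against series A, on the scale log2(signal + 1.1). Points run upward for C and downward for B, and the 2 outermost points are 252367_at and 249606_at.

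The transcripts called higher at 16 h stood well above their trough at 16 h and near it at 4 h in series A and C. The calls were made from these same arrays, so a higher position at 16 h than at 4 h is built in there. Only the levels relative to the trough are described. For these 37, the median position at 16 h was 55.2% of the way up in series A and 76.2% in series C, and at 4 h it was 1.8% and -7.2%. In series B these medians were -2.7% at 16 h and 63.1% at 4 h. The most extreme was 252367_at, which is unnamed here. It had 1073.4, 1331.2 and 1376.4 at 0 h and 1163.5, 1520.7 and 1594.8 at 20 h, 846.1, 0.7 and 1410.8 at 16 h and 1.1, 960.7 and 5.3 at 4 h. In A and C its 4 h signal was thus lower than at 8 h and 12 h, where it had 26.5, 301.4 and 60.7 and 222.2, 68.5 and 235.7. The difference was 8.19 ± 0.82 on the log2 scale (SE, limma without the 2 arrays, adjusted p = 5.25e-05, 4.24e-05 to 0.00179 over the 9 alternatives), a size that depends on the constant added because of the near-zero values.

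AT5G11070 had the smallest adjusted p of the members. Its signal was 146, 709.7 and 129.6 at 4 h and 710.9, 140.9 and 834.5 at 16 h, and 811.3, 750.6 and 755.1 at 0 h and 805.1, 709.8 and 814.1 at 20 h. In series A and C the 4 h arrays held less than the lowest array of 8 h and 12 h (281.5), and the 16 h arrays were near the level of 20 h. The difference was 2.48 ± 0.15 (SE, limma without the 2 arrays, adjusted p = 4.27e-07, 2e-07 to 2.78e-05 over the 9 alternatives). With all 18 arrays it was 0.88 ± 0.57 (adjusted p = 1). The heat shock protein gene AT4G21870 had 52.5, 164.8 and 37.5 at 4 h and 224.6, 67.4 and 256 at 16 h. It was higher at 16 h by 2.40 ± 0.29 (adjusted p = 0.000212, limma, the same fit) and was called under each of the 9 alternatives.

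Other members with large differences toward 16 h are unnamed here. 249606_at had 10.3, 539.4 and 23.9 at 4 h and 469.6, 8.3 and 724.4 at 16 h, and it stood out by a 20 h mean (1171 ± 371) above that of 0 h (506 ± 138, SD, n = 3). 246114_at had 80.9, 264.6 and 8.8 and 316.7, 71.9 and 317.6, and 251642_at had 58, 249.6 and 49.8 and 363.2, 55.8 and 339.5 at 4 h and 16 h. 257216_at and 264624_at differed by 2.40 ± 0.45 and 2.28 ± 0.24 on the log2 scale (SE, limma without the 2 arrays, adjusted p = 0.00661 and 9.33e-05). Of the 5 probe sets in this paragraph, 251642_at and 264624_at were called under all 9 alternatives.

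Named genes called higher at 16 h numbered 10. Beside AT5G11070 and AT4G21870 they were AT1G06830 (1.89 ± 0.24), AT1G49200 (2.11 ± 0.44), AT5G25280 (1.49 ± 0.16), AT3G07870 (1.48 ± 0.32), TBL45 (1.37 ± 0.18), AT5G16110 (1.19 ± 0.31), AT1G16170 (0.95 ± 0.21) and AT4G26400 (0.80 ± 0.19), as log2 differences with SE. Of these 10, AT4G21870, TBL45, AT1G06830, AT5G25280 and AT5G11070 were called under all 9 alternatives, while AT1G49200 was called under 5 and AT4G26400 and AT3G07870 under 4 each. The glutaredoxin gene AT1G06830 had 188, 366.9 and 149.8 at 4 h and 521.7, 148.6 and 752.6 at 16 h, and TBL45 had 297.7, 695.3 and 221.6 and 629.9, 236.8 and 703.2. For both, series B again held the higher value at 4 h. The wall genes EXO (1.31 ± 0.36, adjusted p = 0.0624, 0.0021 to 0.516 over the 9 alternatives) and TBL37 (1.12 ± 0.31, adjusted p = 0.0627, 0.0164 to 0.534) missed the threshold in this limma fit, but EXO was called under 1 alternative and TBL37 under 2.

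The 11 members called higher at 4 h were still high at 4 h and near their trough at 16 h in series A and C. Here too the order of the 2 times in A and C is built in, since these arrays made the calls. The values for these 11 members describe levels only. The median position of the 11 at 4 h was 85.7% in series A and 52.6% in series C. At 16 h it was 3.6% and 8.7%, while series B had 8.0% at 4 h and 77.9% at 16 h. AT5G48490, the DIR1-related lipid transfer protein, had 818.6, 211 and 1121.4 at 4 h and 123.8, 945.8 and 290.2 at 16 h. The log2 difference between 16 h and 4 h was -2.33 ± 0.56 (SE, limma without the 2 arrays, adjusted p = 0.0329, 0.0152 to 0.253 over the 9 alternatives). AT3G21670 (NPF6.4) had 802, 352.2 and 651.1 and 279, 804.1 and 255.8 at 4 h and 16 h, a difference of -1.43 ± 0.30 (adjusted p = 0.0157, 0.00841 to 0.121). The calls held under 5 and 3 of the 9 alternatives.

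AT3G56290 and AT1G66330 were the other named genes called higher at 4 h. AT1G66330 had 383.7, 180.9 and 390.2 at 4 h and 171.7, 400.5 and 183.1 at 16 h (-1.12 ± 0.16, limma adjusted p = 0.00106), a call that held under all 9 alternatives, and AT3G56290 had 492.9, 137 and 388.5 and 166.2, 392.5 and 178.1 (-1.34 ± 0.28, adjusted p = 0.0126). In each of these 4 genes the 2 arrays of A and C at 4 h lay above those at 16 h, and the series B arrays were in the reverse order. Among the unnamed probe sets, 251519_at had 648.2, 307.2 and 898.7 and 180.7, 725.3 and 261.8 and was called under all 9 alternatives. 253174_at had 2440.7, 1468.7 and 2720.8 and 1125.5, 2314.1 and 912.4, 259927_at 231.4, 32.2 and 137.1 and 42.6, 200.5 and 67.5, and 248607_at 402.3, 52.9 and 238.1 and 68.8, 290.2 and 104.9 at these times. 258723_at, listed at 0.3 to 1 at 8 h and 12 h, had the largest ratio of the 150, which rests on these near-zero signals. At 4 h and 16 h it had 40.4, 6.9 and 25.1 and 7.1, 31.9 and 8.4.

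Several described members gave no call on this contrast in either fit. HYH differed by -0.26 ± 0.45 (adjusted p = 0.918), AT1G33110 by -0.21 ± 0.26 (adjusted p = 0.856), AT5G13770 by -0.21 ± 0.27 (adjusted p = 0.871) and AT4G18740 by 0.05 ± 0.29 (adjusted p = 0.976, all limma without the 2 arrays). AT3G15450 differed by 0.78 ± 0.78 (adjusted p = 0.8, same fit), and none of these 5 was called under any of the 9 alternatives. For cICDH the difference was 0.93 ± 0.25 (adjusted p = 0.0626, 0.00353 to 0.476 over the alternatives), and 4 of the 9 called it. AT1G05840 was called under 1 alternative, with 0.49 ± 0.20 (adjusted p = 0.262, 0.0356 to 0.837). These values do not show that 4 h and 16 h were equal.

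In most members 0 h was the higher of the 2 high times, within what the rule allows. The counts that follow come from arrays the rule used and carry no test. They were not set beside all probe sets, so they are not shown to be particular to the members. The 0 h signal was above that of 20 h for 139 members of series A, for 130 of B, for 138 of C and for 123 throughout. The highest signal of a series was at 0 h for 137 members in A, 127 in B and 133 in C. The median ratio of the 0 h mean to the 20 h mean was 1.37, with a range of 0.43 to 2.11 whose upper end the rule sets. Only 4 members were higher at 20 h than at 0 h in every series. In the means over all 3 series, 262947_at was highest at 16 h, with 2047.8, 591.2 and 1487.9, and 248566_s_at at 4 h, with 1416.8, 914.1 and 1405.3, and in both the series B array was the lowest of the 3.

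**Figure D4:**
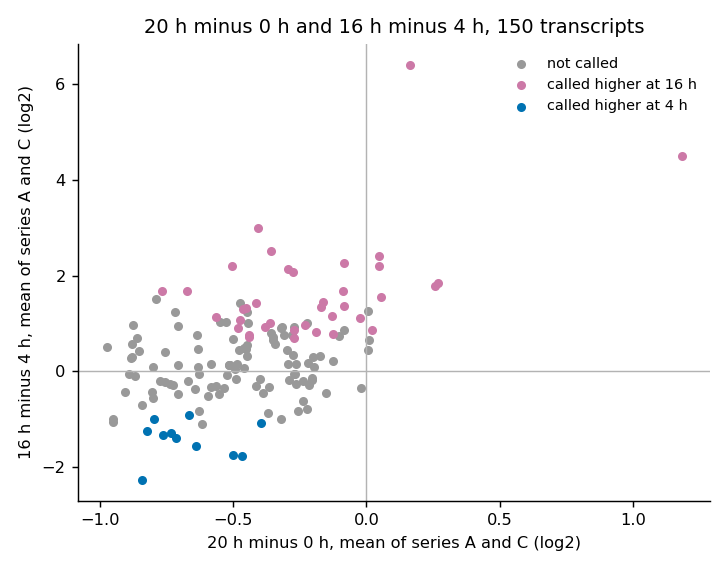
Log2 difference between 20 h and 0 h (x axis) and between 16 h and 4 h (y axis) for each of the 150 transcripts, both as means of series A and C on the scale log2(signal + 10), with the calls of the fit without the arrays 4 h B and 16 h B in colour. All 11 transcripts called higher at 4 h lie to the left of 0 on the x axis, as do 29 of the 37 called higher at 16 h and 139 of all 150.

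Across the 150 members, the difference between 20 h and 0 h and that between 16 h and 4 h went together in the means of series A and C, with Pearson's r = 0.51 and Spearman's rho = 0.40, and r = 0.43 without the 2 transcripts farthest out on the first measure. Over the 10832 probe sets at least as bright r was 0.39, and in series B alone it was -0.56 among the members. The 2 differences share no array, but both are from the same 2 series and transcripts are not independent, so no test is given. The median ratio of 0 h to 20 h was 1.18 among the 37 members called higher at 16 h and 1.58 among the 11 called higher at 4 h.

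The same rule with the times exchanged gives 150 transcripts high at 8 h and 12 h. Without the arrays 4 h B and 16 h B, 42 of these were called between 16 h and 4 h, 18 higher at 16 h and 24 higher at 4 h, against 37 and 11 among the members. The difference between the 2 sets of counts was not tested. In both series A and C, 42 of the exchanged set were higher at 16 h and 83 at 4 h, while the members had 83 and 46.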

How the data were processed

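The deposited values are linear intensity signals, with 1 value for each probe set on each array. MAS5 made them, per the submitters' processing notes, and its version and the genome build are not given in the sources used here. Of 22810 probe sets, 64 array controls were left out. Array medians differed by at most 0.30 on the log2 scale, so no further normalization was applied. Tests used log2(signal + 1.1), the constant being the 10th percentile of all signals, in limma 3.58.1 (R 4.3.3) with a mean for each of the 6 times, an intensity trend and Benjamini-Hochberg adjustment at 0.05. The procedure was tested on simulated data.

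Times were compared only between 16 h and 4 h, since the choice of members used the other 4. The 150 members, the gene lists and the left-out arrays were chosen with earlier results of these data known, and the role groups after the values were seen. The rule left out the 4 named genes before ranking. Selected for description were the 15 named members with the highest scores and the 6 with the highest means. List members and the 8 largest calls in each direction were added. Not every array value is given for each of these, and further members were described by role. Replicate letters mark separately grown courses, per the series' design text. After removal of the time means, arrays within a series correlated on average at 0.17, 0.16 and 0.33 in A, B and C, the lowest pair being -0.28 in B.

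Probe sets were named from the platform annotation (13513 with 1 gene, 503 with several, 8730 with none), and 13436 of the names matched the RefSeq table, used for symbols and neighbours. Promoter and protein sequences were not used here.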

Additional observations from a re-analysis of the deposited data

Results flagged for a closer look

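A pair of results stood out because most members that went one way in both series A and C went the opposite way in series B. Of the 83 members with a higher signal at 16 h than at 4 h in both A and C, 80 were lower at 16 h in B. Of the 46 with a higher signal at 4 h in both A and C, 43 were lower at 4 h in B. The difference was not tested. It was no feature of the members alone, since among the 10832 probe sets at least as bright as the dimmest member the shares that went the opposite way in B were 82.2% and 81.9%, against 96.4% and 93.5% of the members.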

How the results depend on the processing

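With all 18 arrays, limma called 0 members and 0 probe sets between 16 h and 4 h under each normalization, offset, filter and trend tried, and also with the replicate block (0 called, 941 probe sets and 8 members at an unadjusted p below 0.05). Leaving out replicates gave 0 to 843 probe sets and 0 to 45 members, the upper ends without series B, and leaving out the arrays 4 h B and 16 h B gave 749 and 48. Alternatives to that last fit were chosen after seeing the data. They gave 1791 probe sets and 72 members with the replicate block, 495 and 29 without the intensity trend, and 290 to 481 and 19 to 32 when 1 more array was left out. The cause of these differences was not tested, and the last of these fits also have fewer arrays. Quantile normalization, a shift to equal medians and an offset of 10 gave 604 to 876 probe sets and 38 to 51 members. Of the 16 members with the largest calls, 8 lost the call without 16 h A and 7 each without 16 h C, 4 h A and 4 h C, and none changed direction. With all 18 arrays, where none of these 16 was called, the sign changed for 8 without series A and for 5 without series C. Other settings of the rule kept 124 to 144 of the 150 members. The number of arrays limits precision, and signals near 0 make large ratios uncertain.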
